A study of Mus musculus with 27 samples.

Results

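The genes described here encode 6 cytokines made by macrophages, namely Il1a, Il1b, Il18, Tnf, Il6 and Il10. They were chosen by name from the 16038 genes to which the deposited H3K27ac table assigns a window, and they held 48 of its 70300 windows (11 for Il1a, 9 for Il1b, 1 for Il18, 3 for Tnf, 11 for Il6 and 13 for Il10). Sites of the transcription regulators were counted between the outermost windows of each gene and 5 kb beyond them on either side. The study asked how the regulatory landscape of liver macrophages differs in a dietary mouse model of NASH (non-alcoholic steatohepatitis), in which the liver stores fat and becomes inflamed. It did so by ChIP-seq, the sequencing of DNA pulled down with a protein or with a marked histone. The cells were Kupffer cells, macrophages that reside in the liver, sorted as F4/80-high and Tim4-positive from C57BL/6J mice fed a NASH diet or a control diet, with 2 libraries per diet for each of H3K27ac, LXR, ATF3 and P300. Per the labels, livers for the H3K27ac libraries were digested in the presence of flavopiridol, which blocks transcription elongation and limits the response of the cells to being isolated. Neither the age of the mice, nor whether the libraries of a diet came from separate animals, nor their time on the diet is given in the sources used here, although one of the region lists behind the windows is named for 20 weeks on the NASH diet. All p-values therefore rest on the spread between libraries that may be technical repeats.

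Macrophages release these cytokines when receptors for microbial products or for tissue damage activate NF-κB, AP-1 and related factors. Il1a and Il1b encode the ligands of the IL-1 receptor and Il18 a related protein. The precursors encoded by Il1b and Il18 become active when the protease encoded by Casp1 cleaves them in the inflammasome. Tnf encodes tumour necrosis factor, which acts on TNF receptors and drives further inflammatory transcription, and Il6 encodes the cytokine that induces the acute-phase proteins of hepatocytes. Il10 encodes a cytokine that restrains inflammatory gene expression, in part through STAT3. H3K27ac, an acetylated lysine of histone H3, marks promoters and enhancers that are active. P300 is an acetyltransferase that writes it, LXR is a nuclear receptor for oxysterols, and ATF3 is a stress-induced factor of the ATF/AP-1 family.

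Depth and sample identity bear on every value below. The NASH H3K27ac libraries held 18749728 and 19231109 tags and the control libraries 9468035 and 22615879 tags, and values are given as normalised tags, scaled by the authors to 10000000 tags per library. A count of 0 allows up to 3 tags, or 1.60 and 1.56 normalised tags in the NASH libraries and 3.17 and 1.33 in the control libraries. All 8 Kupffer cell markers had H3K27ac, but 5 of them were called lower on the NASH diet. Over all genes tested, 11.0% were called lower and 2.89% higher. The summed signal of the 8 markers was 990 and 920 normalised tags in the NASH libraries against 1628 and 1538 in the control libraries. Timd4, which encodes the Tim4 protein used for sorting both groups, had 21.3 and 26.0 normalised tags in the NASH libraries and 257 and 256 in the control libraries. Of the markers of 8 other cell types, those of T and NK cells summed to 170 and 152 normalised tags on the NASH diet and 120 and 130 on the control diet (3 of 8 markers have a window, 1 called raised). Klrb1c made up most of this sum, with 143 and 121 against 112 and 122, which overlap. Cd3d, the marker called, had 12.3 and 21.8 against 3.17 and 3.54, and Cd247 had 13.9 and 8.84 against 5.29 and 4.87. Those of neutrophils summed to 80.0 and 75.4 against 126 and 136 (6 of 9 have a window, 2 tested, 2 called lowered and 0 under the TMM scaling named below). Most of that sum was Csf3r, with 67.2 and 62.4 against 99.3 and 110. Of the untested neutrophil markers, all with few tags, S100a9 and Cxcr2 lay higher in both NASH libraries, Retnlg lay lower and S100a8 overlapped. Those of monocytes summed to 385 and 409 against 367 and 358 (5 of 7 have a window, none called under the authors' scaling). Under TMM 2 monocyte markers were called raised, where 7.25% of all genes were. The other 5 marker lists (B cells, endothelium, hepatocytes, stellate cells and cholangiocytes) had summed signals of 9.36 to 68.8 normalised tags in the NASH libraries and 11.9 to 119 in the control libraries, and no marker with a window was at 0 in all 4 libraries. In these 5 lists limma called 1 marker lower, endothelial Stab2, with 17.1 and 13.5 normalised tags on the NASH diet and 49.6 and 26.97 on the control diet (log2 change relative to the median gene -0.93, SE 0.36, adjusted p = 0.0296, TMM 0.0452). Hepatocyte Apoa1, with 10.1 and 12.5 against 5.28 and 1.77 normalised tags, was called higher under TMM (adjusted p = 0.0162) but not under the authors' scaling (0.0601). In bulk libraries, a change in the share of cells that carry the mark and a change in its amount per cell cannot be told apart.

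The promoters of 4 of the genes are shown because H3K27ac windows and factor sites lie on them and because the H3K27ac changes of Il6 and Tnf within 1 kb of the start lay furthest apart. Each sequence holds 300 bases around the annotated start, most of them upstream, from RefSeq (GRCm38.p6), written 5′ to 3′ on the strand of the gene, at chr5:30012864-30013163 (plus strand) for Il6, chr17:35201958-35202257 (minus strand) for Tnf, chr2:129309923-129310222 (minus strand) for Il1a and chr2:129371090-129371389 (minus strand) for Il1b. Capitals mark matches, on either strand, to the AP-1 site TGANTCA, the kappaB form GGGNNTTTC, the C/EBP form TTGCNNAA and the TATA box TATAAA. No match overlaps another.
Il6: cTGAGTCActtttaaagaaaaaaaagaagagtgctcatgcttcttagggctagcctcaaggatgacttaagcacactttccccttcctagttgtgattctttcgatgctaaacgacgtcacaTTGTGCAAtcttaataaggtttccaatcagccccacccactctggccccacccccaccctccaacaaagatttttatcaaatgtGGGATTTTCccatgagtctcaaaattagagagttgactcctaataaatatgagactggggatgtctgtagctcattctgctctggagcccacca
Tnf: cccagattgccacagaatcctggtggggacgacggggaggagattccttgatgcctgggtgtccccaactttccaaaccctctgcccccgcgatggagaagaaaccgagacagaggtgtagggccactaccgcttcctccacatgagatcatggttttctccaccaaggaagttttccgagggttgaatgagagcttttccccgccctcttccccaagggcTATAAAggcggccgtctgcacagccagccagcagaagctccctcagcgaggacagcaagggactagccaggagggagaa
Il1a: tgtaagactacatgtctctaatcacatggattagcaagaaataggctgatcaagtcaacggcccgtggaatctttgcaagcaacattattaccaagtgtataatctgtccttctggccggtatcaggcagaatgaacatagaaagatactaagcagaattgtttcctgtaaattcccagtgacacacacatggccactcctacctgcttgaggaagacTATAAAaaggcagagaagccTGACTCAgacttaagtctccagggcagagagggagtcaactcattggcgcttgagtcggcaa
Il1b: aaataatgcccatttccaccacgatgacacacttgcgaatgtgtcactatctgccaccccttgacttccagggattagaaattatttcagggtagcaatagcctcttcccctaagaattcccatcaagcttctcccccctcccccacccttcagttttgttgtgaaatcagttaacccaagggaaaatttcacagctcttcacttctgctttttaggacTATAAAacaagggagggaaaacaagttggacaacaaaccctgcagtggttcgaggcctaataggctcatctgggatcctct
The Il6 promoter held an AP-1 match beginning at -249, a C/EBP match on the other strand at -128 and a kappaB match at -44, counted from the start site. Il1a held an AP-1 match at -12 and a TATA box at -32, and the TATA boxes of Il1b and Tnf began at -31 and -29. The Il18 promoter, which is not printed, held a kappaB match at 38 and a TATA match at -175, both on the other strand. Among all 32851 promoters of the same table, 7.81% held the AP-1 site, 4.36% the kappaB form, 10.8% the C/EBP form and 13.6% the TATA box, on either strand. The CRE TGACGTCA, the site class for which ATF proteins are named, was found in 1.79% of all promoters and in none of these windows of sequence. A match describes the letters and does not show that a factor binds there.

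Over all windows of each gene, Il6 and Il10 fell on the NASH diet and none of the 6 cytokine genes was called higher. The tests were made with limma on log2(normalised tags + 1), with p-values adjusted over all 11593 genes tested. The median gene moved by -0.29 on the log2 scale under the authors' scaling, so log2 changes are given relative to that median, while the tests were made before it was subtracted. The 2 genes called lower by limma compare with 11.0% of all genes tested, and the 0 called higher (0 also at an unadjusted p under 0.05) with 2.89%. With the libraries rescaled by the TMM method, which removes the shift of the median, Il6 and Il10 were again called lower and Tnf was called higher, against 6.19% of all genes lower and 7.25% higher. The same 3 genes were called with edgeR (6.59% of all genes lower, 7.39% higher), and DESeq2 called Il6 and Il10 lower and none higher (1 at an unadjusted p under 0.05).

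**Figure D1:**
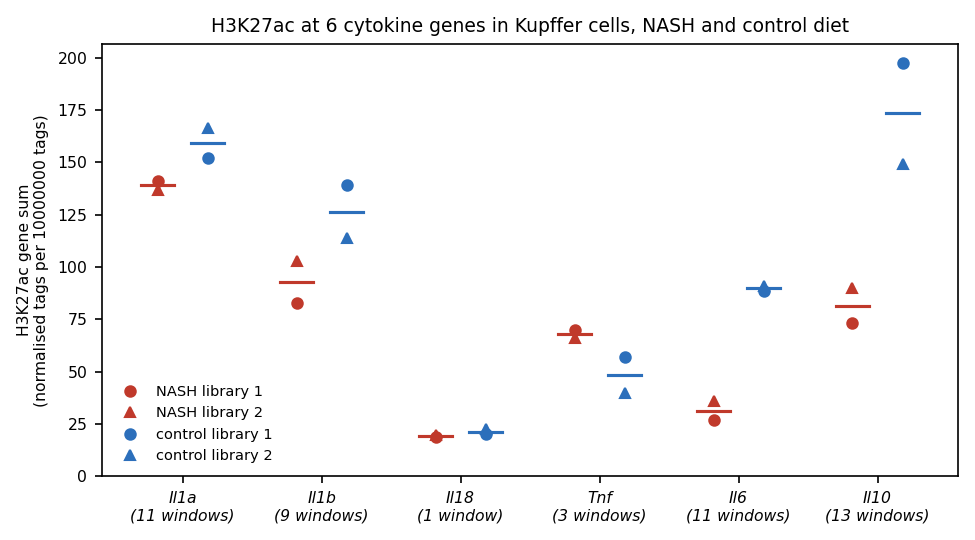
H3K27ac summed over all windows of each gene (y axis, normalised tags) for the 2 NASH libraries (red) and the 2 control libraries (blue), with circles for library 1, triangles for library 2 and bars for the mean. Il6 and Il10 lie far lower on the NASH diet (means of 31.3 and 81.5) than on the control diet (89.9 and 173), and Tnf is the gene whose NASH libraries both lie above its control libraries.

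Il6 had a gene sum of 26.7 and 35.9 normalised tags in the NASH libraries, against 88.7 and 91.1 in the control libraries. Both NASH values lay far below both control values. The log2 change was -1.22 relative to the median gene (SE 0.26, limma adjusted p = 4.67e-04). Il10 had 73.1 and 90.0 normalised tags on the NASH diet and 198 and 149 on the control diet, again with no overlap, and its log2 change was -0.79 (SE 0.20, limma adjusted p = 0.00109). When each library was left out in turn, the change ranged over -1.51 to -0.94 for Il6 and -1.02 to -0.56 for Il10, and both stayed called. Thus the gene for a pro-inflammatory cytokine and the gene for an anti-inflammatory one were both called lower.

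Tnf lay in the other direction. Its gene sum was 69.9 and 66.0 normalised tags in the NASH libraries and 57.0 and 39.8 in the control libraries, so both NASH values lay above both control values, as in 12.3% of all genes in the table. The log2 change relative to the median was 0.79 (SE 0.25), with a limma adjusted p of 0.195 under the authors' scaling, 0.0129 under TMM and 0.00815 with edgeR's quasi-likelihood test on the recovered tags. DESeq2, which also rescales the libraries, did not call it (log2 change 0.82, adjusted p = 0.101). The call for Tnf therefore depends on the scaling and on the test, while its direction relative to the median gene was the same in these 4 tests. Lta, which encodes lymphotoxin alpha and is the neighbour of Tnf, had 114 and 126 normalised tags on the NASH diet and 146 and 181 on the control diet, and was not called (log2 change -0.15, SE 0.18, limma adjusted p = 0.114). The T and NK cell markers given above, cell types that can transcribe Tnf, also summed to more in the NASH libraries. Most of that sum was Klrb1c, which overlapped between diets and was not called. The part of these cells in the Tnf value was not tested.

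The IL-1 family ligands did not pass the test in either direction. Il1a had 141 and 137 normalised tags on the NASH diet and 152 and 167 on the control diet. Il1b had 82.7 and 103 normalised tags against 139 and 114, and Il18, with its single window, had 18.7 and 19.8 against 20.1 and 22.6. In all 3 genes both NASH libraries lay below both control libraries, as they did for 39.3% of all genes in the table. Relative to the median gene the log2 changes were 0.09 for Il1a (SE 0.17, limma adjusted p = 0.472), -0.16 for Il1b (SE 0.20, limma adjusted p = 0.146) and 0.14 for Il18 (SE 0.35, limma adjusted p = 0.825). Leaving out a single library turned the sign of each, namely control library 1 for Il1a (-0.078) and Il18 (-0.039) and NASH library 1 for Il1b (0.075).

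Levels of the genes can be set beside each other only per length of window, and such a density also depends on where the windows lie. Within 1 kb of the start lay 2 of the 3 windows of Tnf and the 1 window of Il18. The same held for 2 of 11 windows of Il1a, 1 of 9 of Il1b, 2 of 11 of Il6 and 2 of 13 of Il10. The order below therefore does not compare the genes at like positions. On the NASH diet Tnf had the highest H3K27ac density, with 107 ± 4.26 normalised tags per kb of window (SD, n = 2), ahead of Il18 with 85.0 ± 3.41, Il1a with 59.4 ± 1.38, Il1b with 47.8 ± 7.40, Il10 with 29.2 ± 4.27 and Il6 with 13.5 ± 2.82. No 2 neighbours in this order overlapped in their NASH libraries. On the control diet the order was Il18 with 94.3 ± 7.76, Tnf with 76.3 ± 19.2, Il1a with 68.1 ± 4.42, Il1b with 65.2 ± 9.40, Il10 with 62.0 ± 12.2 and Il6 with 38.9 ± 0.729. There the libraries of Il18 and Tnf overlapped, as did those of Tnf, Il1a, Il1b and Il10, and Il6 alone lay apart from all the others. The span between the highest and the lowest gene was wider on the NASH diet than on the control diet.

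Splitting the windows at 1 kb from the start site separated the genes further. Among windows within 1 kb, Il6 was the 1 gene of 6 called lower and none was called higher (3.40% of all genes with such windows were called lower and 0.937% higher). Its 2 windows there, 1 on the promoter and 1 in intron 1, summed to 8.53 and 10.4 normalised tags on the NASH diet and 43.3 and 44.7 on the control diet, a log2 change of -1.82 relative to the median (SE 0.37, limma adjusted p = 4.93e-04). The Tnf windows within 1 kb, likewise 1 on the promoter and 1 in intron 1, summed to 64.0 and 55.6 normalised tags in the NASH libraries against 39.1 and 34.5 in the control libraries, with no overlap (log2 change 0.98, SE 0.29, limma adjusted p = 0.166 under the authors' scaling and 0.0205 under TMM). The intron 1 window carried this difference, while the promoter window overlapped between diets. The Il1a windows within 1 kb overlapped between diets, with 102 and 106 normalised tags on the NASH diet and 89.8 and 105 on the control diet (log2 change 0.39, SE 0.22, limma adjusted p = 0.828).

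Farther than 1 kb from the start, Il1a, Il6 and Il10 were called lower, 3 of the 5 genes with such windows, where 19.7% of all genes tested there were called lower. None was called higher, against 6.47%. The 9 distal windows of Il1a summed to 38.9 and 31.2 normalised tags on the NASH diet and 62.3 and 61.9 on the control diet. Both NASH values lay below both control values, whereas the change of the sum within 1 kb lay above that of the median gene. The log2 change was -0.55 (SE 0.23, limma adjusted p = 0.00985), but it was no longer called under TMM (adjusted p = 0.0710) or without NASH library 2 (adjusted p = 0.108). Distal Il10 windows summed to 48.5 and 64.5 normalised tags in the NASH libraries and 147 and 109 in the control libraries (log2 change -0.90, SE 0.20, limma adjusted p = 9.86e-05), and those of Il6 to 18.1 and 25.5 against 45.4 and 46.4 (log2 change -0.80, SE 0.27, limma adjusted p = 0.00562, lost without NASH library 1 at 0.0578). The share of the mean signal within 1 kb was lower on the NASH diet for Il6 (30.3% against 48.9% on the control diet) and Il1b (11.4% against 14.3%), and higher for Il1a (74.8% against 61.0%), Il10 (30.7% against 26.3%) and Tnf (88.0% against 76.0%). The Tnf share rests on a single distal window, whose change relative to the median (-0.044) was 0.39 without NASH library 1 and 0.69 without control library 1. Differences between near and distal windows were not tested.

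**Figure D2:**
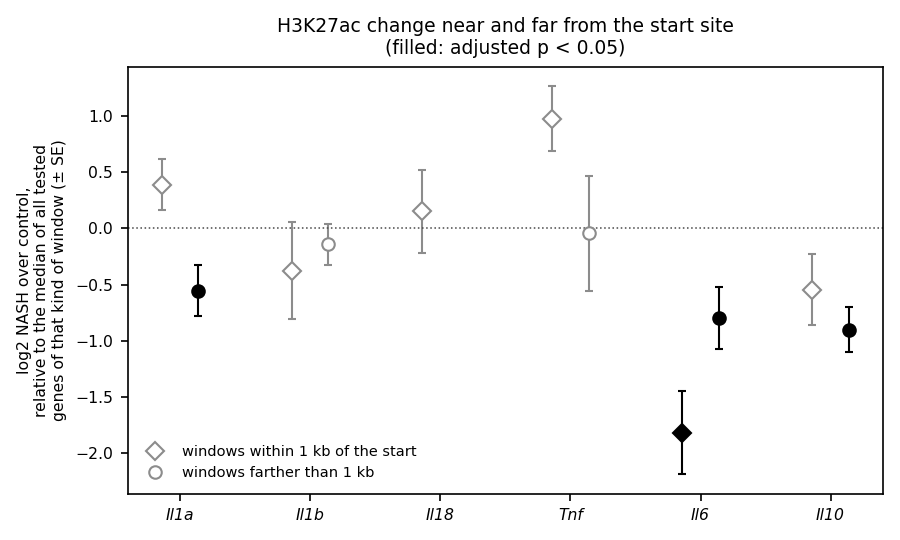
The log2 change of H3K27ac, NASH over control, relative to the median of all genes tested on that kind of window (y axis, ± SE), for windows within 1 kb of the start site (diamonds) and windows farther away (circles), with filled symbols for an adjusted p under 0.05. Il6 was called lower in both kinds of window, Il1a and Il10 in the distal windows, and the Tnf sum within 1 kb, made of a promoter and an intron 1 window, lies highest at 0.98.

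Of the 48 cytokine windows, 27 had enough tags to be tested, and limma called 5 of them lower and 0 higher (2 higher at an unadjusted p under 0.05). A call needed an adjusted p under 0.05 together with an absolute log2 change of 1 or more, taken before the median of all windows (-0.26) was subtracted. Over all 35947 windows tested, 4.59% were called lower and 2.00% higher. Both NASH libraries lay below both control libraries in 23 of the 48 cytokine windows, against 30.8% of all windows, and above them in 5, against 14.8%. The 5 called windows belonged to Il6 (2), Il10 (2) and Il1b (1). Under TMM 3 were called lower and 1 higher, where 2.51% and 3.32% of all windows were, and the counts with edgeR were also 3 and 1 (3.14% and 3.78% of all windows). None of the 5 was called with DESeq2, where 5 cytokine windows were lower at an unadjusted p under 0.05, or without the filter on low windows, which puts every window with a tag into the adjustment.

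Both windows at the Il6 start site were called lower. The window at -200 bp (chr5:30012804-30013025), which covers much of the promoter sequence printed above, had 0.53 and 3.64 normalised tags in the NASH libraries and 15.8 and 14.2 in the control libraries. The first of the NASH values is a single tag, below the limit that a count of 0 allows. The log2 change was -2.32 relative to the median window (SE 0.58, limma adjusted p = 0.0119), and it was not called without NASH library 1 (0.0652) or control library 1 (0.0563). Its size rests on the single-tag library, since without NASH library 1 it was -1.45, a smaller change than that of the Il6 window at 150 bp (-1.61) or the Il10 window at -1060 bp (-1.70) in the same setting, and with a pseudocount of 5 it was -1.33. The window at 150 bp in intron 1 (chr5:30013146-30013382), the highest window of Il6, had 8.0 and 6.76 normalised tags on the NASH diet against 27.5 and 30.5 on the control diet. It had the firmest call of the set, with a log2 change of -1.58 (SE 0.37, limma adjusted p = 0.00624) that held when any 1 of the 4 libraries was left out. A cluster of 3 intergenic windows between -66013 and -64830 bp was lower in 2 of them in both NASH libraries, but none was called (limma adjusted p = 0.0607 to 0.625).

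At Il10, the called windows lay upstream. The intergenic window at -1060 bp (chr1:131018685-131018885) had 8.53 and 6.24 normalised tags in the NASH libraries and 37.0 and 22.1 in the control libraries. It was lower in both NASH libraries, with a log2 change of -1.58 (SE 0.39, limma adjusted p = 0.00907), a call lost without control library 1 (0.0784). The window at -4292 bp (chr1:131015418-131015689) had 10.7 and 14.6 against 28.5 and 33.6 normalised tags, a log2 change of -0.99 (SE 0.34, limma adjusted p = 0.0327), which was not called under TMM (0.0935) or without NASH library 1 (0.168), NASH library 2 (0.0588) or control library 2 (0.0849). The window on the start site itself, at 12 bp, had 16.5 and 13.0 normalised tags on the NASH diet and 34.9 and 26.1 on the control diet. It too did not overlap between diets, and did not pass the test (log2 change -0.73, SE 0.33, limma adjusted p = 0.0783). A further group of Il10 windows, at 32754 to 34097 bp downstream, lies at the end of the neighbouring gene Mapkapk2, which encodes a kinase that stabilises cytokine mRNAs. The assignment of this signal to Il10 is by distance alone. These windows are part of the Il10 gene sum and of its distal sum, and no fit was made without them. The 2 largest, at 33120 and 33503 bp, had 9.07 and 10.4 against 27.5 and 19.5 normalised tags, and 6.93 and 9.88 against 19.0 and 14.2, NASH against control. Neither was called.

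Il1b held windows with changes of opposite sign. The intergenic window at -16558 bp (chr2:129387597-129387797) had 12.8 and 16.6 normalised tags on the NASH diet and 41.2 and 33.2 on the control diet, both NASH libraries being lower. Its log2 change was -1.02 (SE 0.32, limma adjusted p = 0.0210), and the call was lost under TMM (0.0608), without NASH library 1 (0.109) and without control library 1 (0.0924). The intergenic window at -9252 bp had 21.9 and 28.1 normalised tags in the NASH libraries against 9.51 and 16.8 in the control libraries, with no overlap, and did not pass the test (log2 change 1.17, SE 0.37, limma adjusted p = 0.141). The promoter window at 8 bp had 10.7 and 10.4 against 23.2 and 12.8 normalised tags (limma adjusted p = 0.337).

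The highest single values of the set belonged to the Il1a promoter window at 6 bp, with 66.1 and 62.9 normalised tags in the NASH libraries and 54.9 and 68.5 in the control libraries, which overlap. At Tnf, the window at -78 bp on the promoter had 16.5 and 21.3 normalised tags on the NASH diet and 20.1 and 13.7 on the control diet, again overlapping. The window at 851 bp in intron 1 of Tnf (chr17:35201056-35201256) had 47.5 and 34.3 normalised tags in the NASH libraries and 19.0 and 20.8 in the control libraries. It had the highest log2 change of the 27 tested windows relative to the median, 1.25 (SE 0.30), with a limma adjusted p of 0.0540 under the authors' scaling and 0.0154 under TMM. Among the Tnf windows, the one at 851 bp was thus the only one with both NASH libraries above both control libraries. The promoter window and the intron 2 window at 1345 bp both overlapped between diets. H3K27ac between these windows was not counted, and whether the change differed between promoter and gene body was not tested. Il18 had its single window at 160 bp, in the 5′ UTR, where the diets differed by 0.12 on the log2 scale relative to the median (SE 0.33, limma adjusted p = 0.839).

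**Figure D3:**
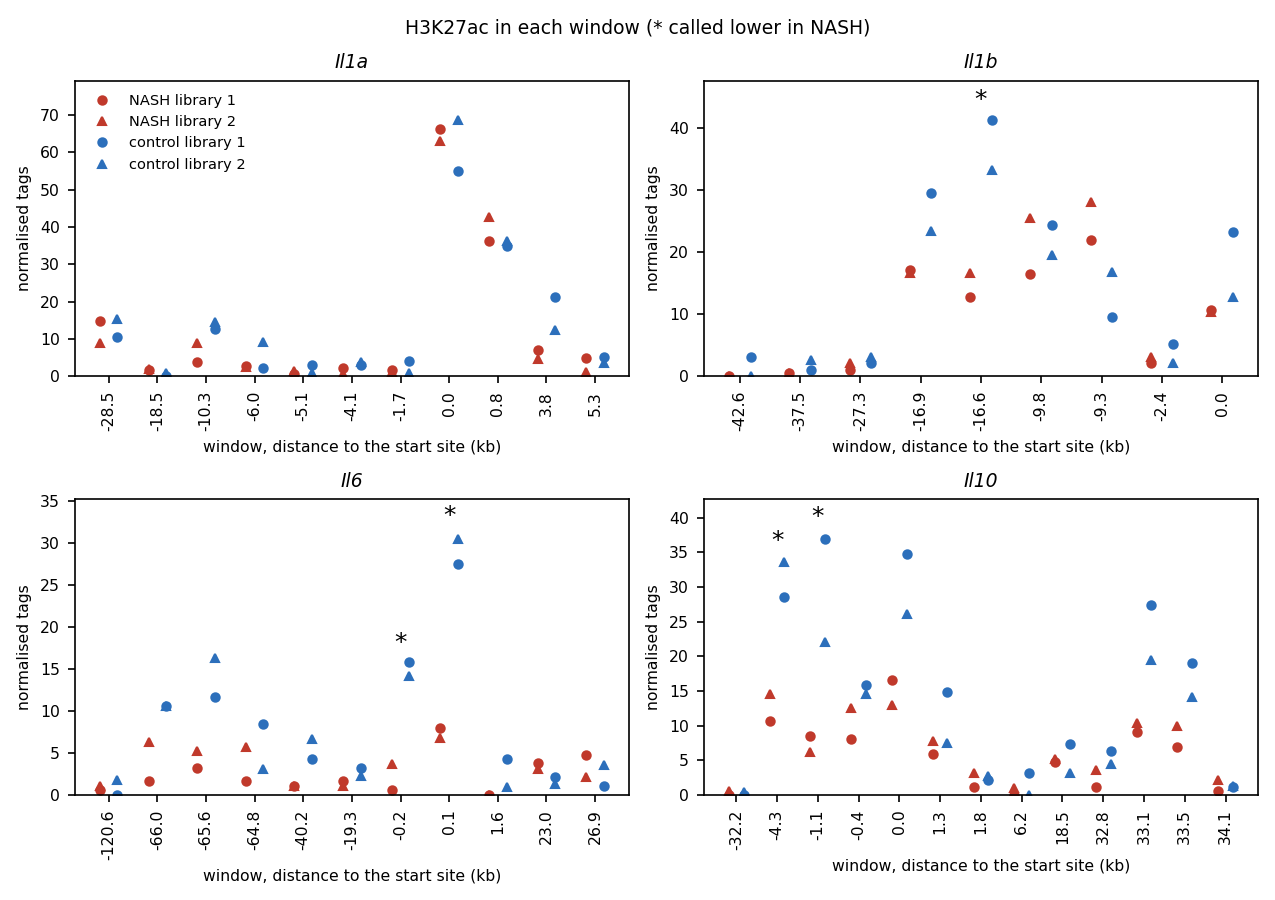
H3K27ac in each window of Il1a, Il1b, Il6 and Il10 (y axis, normalised tags), ordered by distance to the start site (x axis, kb, negative upstream), with NASH libraries in red and control libraries in blue. Asterisks mark the 5 windows called lower on the NASH diet, 2 of them at the Il6 start site, where the NASH libraries reach at most 8.0 normalised tags.

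**Figure D4:**
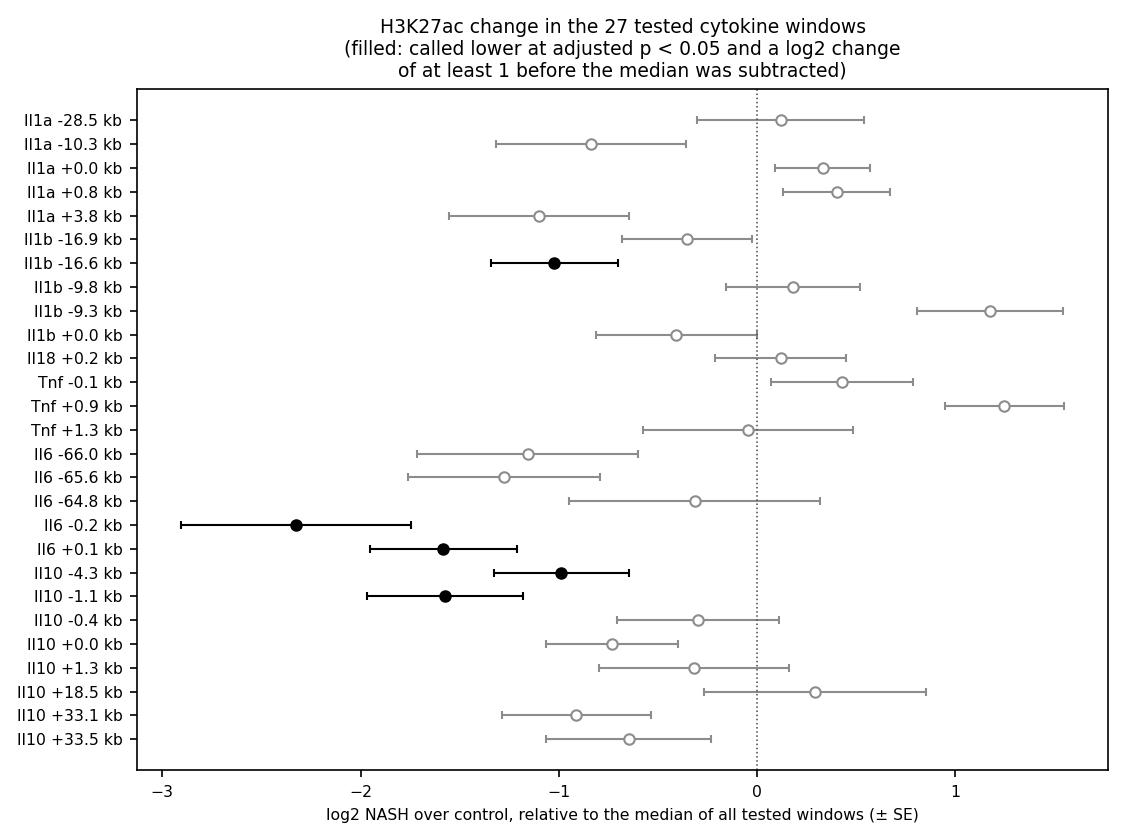
The log2 change of each of the 27 tested windows, NASH over control, relative to the median window (x axis, ± SE), by gene and distance to the start site. The 5 windows called lower (filled) lie between -2.32 and -0.99, and the Tnf window at 851 bp and the Il1b window at -9252 bp lie highest, at 1.25 and 1.17.

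Accessibility lists gave the windows a further label. Of the 48 cytokine windows, 2 came from the list of the 20-week NASH diet alone, 30 from both lists and 16 from the control list alone (4.17%, 62.5% and 33.3%, against 9.72%, 62.1% and 28.2% of all windows). The 5 windows of Il6 from the control list alone were the most of any of the 6 genes. The Tnf window at 851 bp, which had more H3K27ac on the NASH diet, also came from the control list alone. The lists were used here only as names on the windows, with no test.

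The factor lists showed where LXR, ATF3 and P300 were placed at these loci. For each factor the authors gave 1 list per diet, made from both libraries by the reproducibility measure IDR, so there is no spread between libraries and no test. At the 6 loci there were 38 ATF3 sites on the NASH list and 17 on the control list, 48 and 37 for P300, and 45 and 46 for LXR. The whole lists held 38828 and 16109 ATF3 sites, 52628 and 25219 P300 sites, and 51709 and 44463 LXR sites. The NASH list was thus the longer one for all 3 factors, whereas at the loci it held 1 LXR site fewer than the control list. At the loci, 60.5% of the NASH ATF3 sites had no control site on the same place, against 65.7% over the whole list, a similar share. For P300 the share was 35.4% at the loci and 56.7% over the whole list, and for LXR 13.3% and 29.3%.

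By window, 31 of the 48 cytokine windows overlapped an ATF3 site of the NASH list and 15 one of the control list (64.6% and 31.3%, against 42.0% and 21.4% of all windows). LXR covered 34 and 35 windows (70.8% and 72.9%, against 57.7% and 52.7% of all windows), and P300 covered 30 and 24 (62.5% and 50.0%, against 58.9% and 32.3%). Windows with and without ATF3 were also compared by their H3K27ac. Of the 18 cytokine windows with an ATF3 site on the NASH list alone, both NASH libraries were lower in H3K27ac in 6 and higher in 3 (33.3% and 16.7%), against 24.5% lower and 22% higher among all windows of that kind. Of the 15 cytokine windows with no ATF3 site on either list, 9 were lower and 0 higher (60.0% and 0%), against 32.4% and 12.2% of all such windows. The contrast was not particular to ATF3. Of the 17 cytokine windows with no P300 site on either list, 10 were lower and 0 higher (58.8% and 0%), against 28.6% and 14.1%. Without LXR on either list, 3 of 10 were lower and 0 higher, against 27.03% and 15.4%. The groups without ATF3 and without P300 share most of their windows, so they are not separate observations. Several of these windows also share a gene, and the shares were not tested.

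Il10 had the sharpest contrast in ATF3, with 7 sites on the NASH list and 1 on the control list, where the whole lists held 38828 and 16109. None of its 7 NASH sites shared a place with the control site. Over the whole NASH list 65.7% of ATF3 sites had no control site, and the difference from that share was not tested on so few sites. The control site of Il10 lay close to the start site (centre of the merged place at -294 bp). Its IDR score of 560 was near the lowest of the control ATF3 list, 540. The NASH sites of Il10 ran from -4254 bp to 32756 bp and included 2 places, at 1852 and 23118 bp, with ATF3 as the only factor. Both called windows of Il10 overlapped sites of more factors on the NASH lists than on the control lists. The window at -4292 bp lay on a place with LXR and P300 on both diets and ATF3 on the NASH list alone, and the window at -1060 bp overlapped a P300 site, centred at -1254 bp, on the NASH list alone. The LXR site of the NASH list on the same place ends before this window begins.

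Il6 had 7 ATF3 sites on the NASH list and 3 on the control list, 8 and 4 P300 sites and 9 and 10 LXR sites. The place at -196 bp, on the promoter sequence printed above, carried all 3 factors on the NASH list and LXR alone on the control list. Next to it, the place at 168 bp carried LXR and P300 on the NASH list and all 3 factors on the control list. Both places coincide with the windows called lower in H3K27ac, so the NASH lists held factor sites at the Il6 start site where the mark was lower. The place at -64794 bp, far upstream between genes, was on all 6 lists, and its LXR score stood at percentile 99.9 of both the NASH and the control LXR lists, the highest rank of any site at these loci. Its P300 score stood at percentile 99.8 of the NASH list and 99.2 of the control list. The H3K27ac window on it had 1.60 and 5.72 normalised tags in the NASH libraries and 8.45 and 3.10 in the control libraries. This window is an accessible region of 231 bp, and H3K27ac directly beside it was not counted. The nearest other windows of the gene, at -65639 and -66013 bp, were lower in both NASH libraries and not called. They had 3.20 and 5.20 against 11.6 and 16.4 normalised tags, and 1.60 and 6.24 against 10.6 and 10.6, NASH against control. How the factor scores relate to H3K27ac here was not tested.

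At Il1a there were 11 ATF3 sites on the NASH list and 6 on the control list. Places on all 6 lists lay at 3816, 801, -4130, -5948 and -28486 bp. The place at -18458 bp carried all 3 factors on the NASH list and none on the control list. At 3816 bp the LXR site ranked at percentile 99.0 of the NASH list and 99.1 of the control list. Il1b had 6 and 3 ATF3 sites, with all 6 lists meeting on the promoter (-32 bp) and at -9256 and -42620 bp. The place at -9256 bp is that of the window with the higher H3K27ac values on the NASH diet, and the lowered window at -16558 bp had ATF3 on the NASH list alone and LXR on the control list alone.

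Tnf had 3 ATF3 sites on the NASH list and 1 on the control list, and its places were few. The promoter place at -34 bp was on all 6 lists. At 818 bp, the place of the intron 1 window with more H3K27ac on the NASH diet, the NASH lists held all 3 factors and the control lists LXR alone. The place at 1317 bp carried LXR and P300 on both diets and ATF3 on the NASH list alone. Il18 had 4 and 3 ATF3 sites, and the place on its window, at 230 bp, was on all 6 lists, as was the place at -924 bp. The places at -924 and -2292 bp, with ATF3 sites on both diets, lie on windows assigned to another gene, Bco2.

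**Figure D5:**
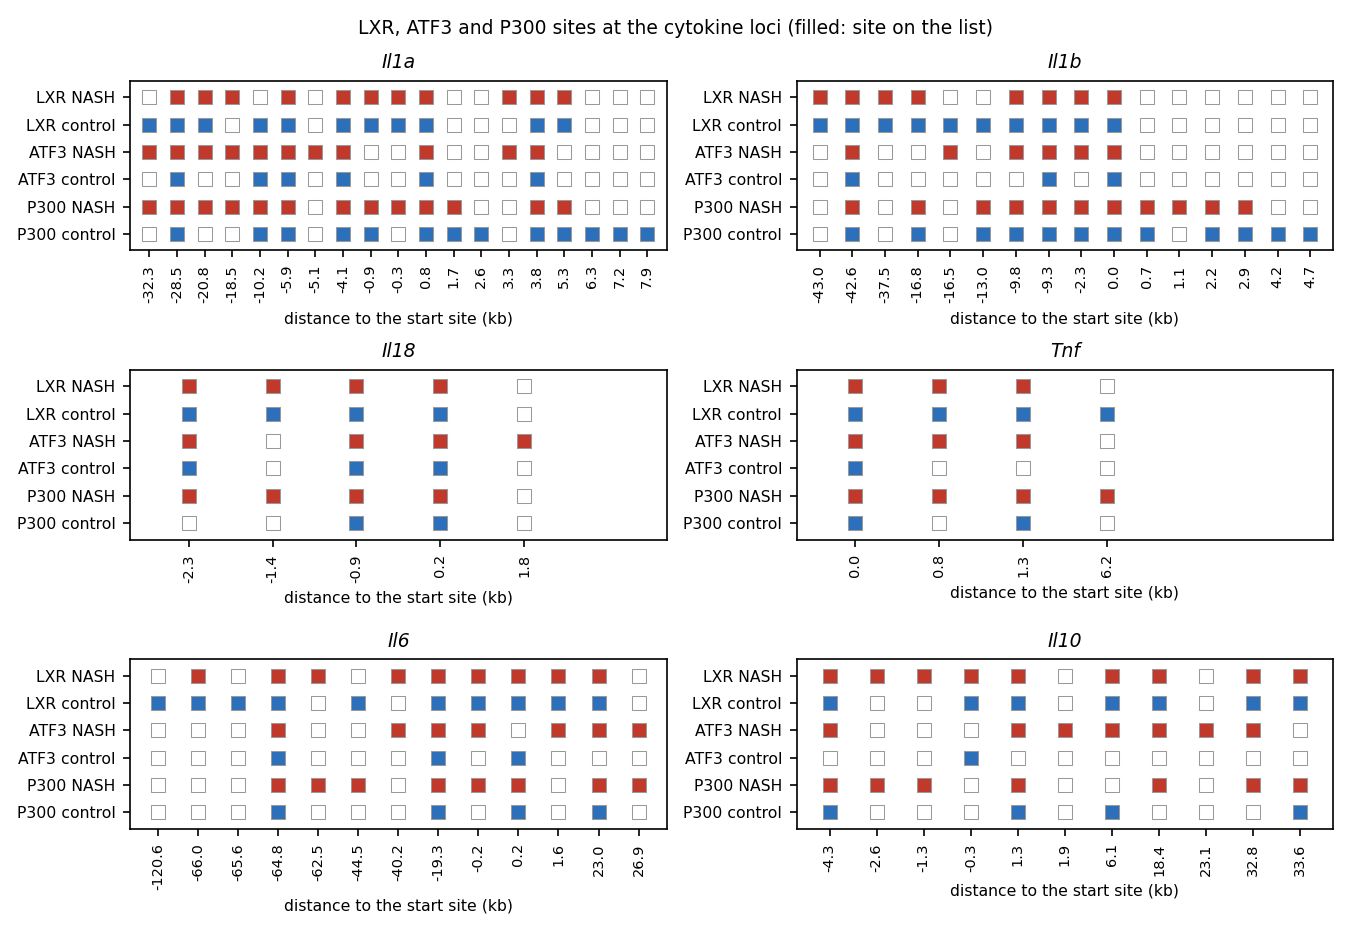
Sites of LXR, ATF3 and P300 (rows, NASH above control for each factor) at the places of each locus (x axis, distance to the start site in kb, in order and not to scale), filled red for a site on the NASH list and blue for a site on the control list. ATF3 fills 38 sites on the NASH lists and 17 on the control lists, where the whole lists held 38828 and 16109. The Il10 rows share no ATF3 place between diets, and 65.7% of the whole NASH list had no control site.

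Genes that receive or process these cytokines were mostly not called. Of 28 genes for receptors, antagonists, processing enzymes and signalling proteins, 26 have a window and 24 were tested, of which limma called 1 higher and 0 lower (3 lower at an unadjusted p under 0.05, and 0 with edgeR, TMM or DESeq2), against 2.89% of all genes higher and 11.0% lower. The median log2 change of the list was 0.11 relative to the median gene. The gene called was Zfp36, which encodes tristetraprolin, an RNA-binding protein that speeds the decay of Tnf mRNA, with 927 and 853 normalised tags on the NASH diet and 725 and 716 on the control diet (log2 change 0.59, SE 0.10, limma adjusted p = 0.0468). Under TMM, Tnfrsf1b, which encodes a TNF receptor, and Nlrp3, which encodes the inflammasome sensor, were called higher as well (adjusted p = 0.0215 and 0.0355), which makes 3 of the 24 where 7.25% of all genes were. Counts this small do not set the list apart from all genes. Casp1, whose product cleaves the precursors of Il1b and Il18, had 144 and 113 normalised tags in the NASH libraries and 111 and 148 in the control libraries, which overlap.

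Of 20 other cytokine genes that macrophages can transcribe, 18 have a window and 14 were tested, of which limma called 0 higher (1 at an unadjusted p under 0.05) and 2 lower, against 2.89% of all genes higher and 11.0% lower, so the lower count is near the background. The median log2 change of the list was -0.10. Tnfsf10, which encodes the death ligand TRAIL, had 201 and 155 normalised tags in the NASH libraries against 289 and 318 in the control libraries (log2 change -0.49, SE 0.16, limma adjusted p = 0.00218). Il23a, which encodes a subunit of IL-23, had 34.1 and 28.1 against 49.6 and 66.3 normalised tags (log2 change -0.58, SE 0.28, limma adjusted p = 0.0424, not called under TMM at 0.130). Under TMM, Il12a and Il16 were called higher (adjusted p = 0.00702 and 0.0236), as 2 genes were with edgeR and 0 with DESeq2. The 6 cytokine genes thus stood in a wider set in which a few genes were called in each direction and most were not.

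For each cytokine gene, the 2 tested genes with the most similar gene sums were found by the Euclidean distance of log2(normalised tags + 1) over the 4 libraries. They were Cfap58 and Arap2 for Il6 (distances of 0.31 and 0.37), Itch and Setd7 for Il10 (0.29 and 0.34), Rnf150 and Gnptab for Tnf (0.16 and 0.19), Flcn and Nadk for Il1a (0.051 and 0.061), Bmp2k and Gm30790 for Il1b (0.14 and 0.15) and Tmem186 and Phf19 for Il18 (0.088 and 0.18). By this measure Il6 had the most distant neighbours of the 6 genes.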

How the data were processed

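ChIP-seq of H3K27ac, LXR, ATF3 and P300 was performed in sorted Kupffer cells, 2 libraries per diet and target. The 10 input samples and 1 peritoneal macrophage library of the 27 samples were not analysed here. The submitters' processing notes name Bowtie2, HOMER, DESeq2, mm10 and GRCm38, with no tool versions or roles. The H3K27ac signal was deposited after HOMER had scaled the tags of every window to a library total of 10000000, per the file headers, and multiplying by the library total gave whole tags within 0.02 for 100% of values. The windows, merged ATAC-seq peaks of 124 to 550 bp, held 8.61% and 7.91% of the NASH tags and 9.60% and 8.86% of the control tags. The 12 windows without a gene name held 0.058% to 0.132% of the tags in windows and were left out of gene sums. For each factor and diet the authors deposited 1 list of sites made from both libraries, per the file headers, with an IDR score and, except for ATF3, an enrichment score. These scores come from the authors and serve here only to rank sites within a list.

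Groups were taken from the labels. Gene sums and windows were tested with limma 3.58.1 (R 4.3.3) on log2(value + 1) after edgeR's filterByExpr (11593 genes, 35947 windows), unpaired, with Benjamini-Hochberg adjustment over all features. The count tests on recovered tags used edgeR 4.0.16 and DESeq2 1.42.0. Replicate libraries differed by more than sampling noise (chi-square per degree of freedom 1.99 for NASH and 2.55 for control, across windows) and were counted once each. Sites sharing 1 bp or more were taken as the same place. Promoter sequences were found for 5 of the 6 genes. The windows printed in full were those called, the window nearest each start site and the highest window of each gene. List genes were named where called. Casp1, Tnfrsf1b, Nlrp3, Il12a, Il16, Stab2, Apoa1, Klrb1c, Cd247 and the untested neutrophil markers were singled out after their values were seen or for their role. So were the Il6 windows at -66013, -65639 and -64830 bp, the Il1b window at -9252 bp, the Tnf window at 1345 bp and the Il10 windows at 33120 and 33503 bp. The 6 genes, the gene lists and the motifs were chosen with earlier results of these data known. The limits given for a count of 0 cover counting error only.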

Additional observations from a re-analysis of the deposited data

How the results depend on the processing

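The calls for Il6 and Il10 gene sums held under the other pseudocounts, no filter, TMM, edgeR and DESeq2, with 1 exception, Il10 in windows within 1 kb (-0.55, adjusted p = 0.127), where 1 gene was called lower. Without 1 library each, log2 changes ranged over -0.078 to 0.27 for Il1a, -0.40 to 0.075 for Il1b, -0.039 to 0.33 for Il18, 0.64 to 0.94 for Tnf, -1.51 to -0.94 for Il6 and -1.02 to -0.56 for Il10. The sign of Il1a turned without control library 1 (-0.078) and in windows farther than 1 kb (-0.55), that of Il1b without NASH library 1 (0.075) and that of Il18 without control library 1 (-0.039). Tnf was -0.044 in windows farther than 1 kb, a single window, and was called higher with edgeR (0.83) and TMM (0.79), the 1 gene raised in each. Near and distal sums were run also with TMM and without each library, chosen after seeing the data. There the distal Il1b sum ranged over -0.36 to 0.10, the distal Tnf window over -0.77 to 0.69 and the Il18 window over -0.057 to 0.37, each with a change of sign. Called windows fell to 3 lowered with edgeR and TMM (1 raised in each) and to 0 lowered with DESeq2 and with no filter, and were 2 to 7 lowered and 0 to 2 raised without 1 library. Other macrophage cytokines had 1 lowered with edgeR, no filter and TMM, and 0 with DESeq2 and within 1 kb, and 1 to 2 without 1 library. They had 2 raised with edgeR and TMM, 1 with no filter and in farther windows, and 0 to 1 without 1 library. Receptor and processing genes had 3 raised with edgeR and TMM, 2 with DESeq2, 0 with no filter, a pseudocount of 5 and windows within 1 kb, 0 to 1 without 1 library, and 2 lowered in farther windows. A stricter IDR score left 1 ATF3 and 4 P300 control sites without a NASH site, and flanks of 0 and 20 kb left 2 and 12 of P300. Libraries with the same replicate number deviated together only weakly (r = 0.0399 over windows, 0.0322 over genes), so the numbers were not taken as pairs. A fit with the replicate number as a block called 8 cytokine windows lower, and in the lists 1 receptor gene lower and 0 higher, and 5 other cytokines lower and 1 higher. Leaving out a library leaves 1 in its group, which is then assumed to vary like the other group. The cause of these differences was not tested.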

Other observations

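Osm, which encodes the cytokine oncostatin M, fell under the limit for testing, with 4.27 and 7.80 normalised tags in the NASH libraries and 0 tags in both control libraries. Ifnb1, which encodes interferon beta, had 16.0 and 18.2 normalised tags on the NASH diet and 34.9 and 31.0 on the control diet, and did not pass the test (log2 change -0.62, SE 0.34, limma adjusted p = 0.0771). Both were singled out after their values were seen.

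With 2 libraries per diet and a control library of 9468035 tags, windows of few tags could not be tested, and 21 of the 48 cytokine windows were left out for this reason. Each factor list is 1 per diet, so site differences have no replicate check. The time on the diet may differ between marks. H3K27ac is not transcription, and no RNA was analysed here. HOMER assigned windows to the nearest gene, which need not be the gene they regulate.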
